A study of Mus musculus with 11 samples.

Results

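Skin transcripts of 5 genes used to describe how macrophages are activated were followed in mice after bone marrow transplant. Nos2 and Acod1 stood for classical activation, and Chil3, Chil4 and Retnla for alternative activation. They were listed by name, with earlier results of these data known, and all 5 were found among the 754 genes of the NanoString Myeloid Innate Immunity panel, a hybridization assay that counts RNA molecules with a barcoded probe for each gene. The recipients were adult female mice that had all received 850 cGy of ionizing radiation followed by intravenous bone marrow cells and splenocytes, and skin from the nape of the neck was collected at 7 weeks. There were 3 syngeneic mice and 3 allogeneic wild type mice (allo-WT), both of strain C57BL/6J, and 5 allogeneic mast cell-deficient mice (allo-MCd) of strain B6.Cg-KitW-sh/HNihrJaeBsmGlliJ. By the study's methods, allogeneic recipients were given LP/J cells and syngeneic recipients C57BL/6J cells, but the labels of all 11 mice name LP/J cells. The comparisons ask how these genes differ with allogeneic transplant in wild type mice and with the absence of recipient mast cells.

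Classical activation is the response of macrophages to interferon gamma and microbial products, through NF-kB and other factors. Alternative activation is their response to interleukin 4 and interleukin 13, which share a receptor chain and signal through STAT6. None of the 5 transcripts is made by macrophages alone: neutrophils contain Chil3 and can express Acod1, epithelia can express Chil4, and fat tissue expresses Retnla.

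The mutant allele of the allo-MCd recipients, W-sh, lies upstream of Kit, a receptor that other cell types also use. Its effect was therefore not limited to mast cells by design, and no syngeneic or untreated mast cell-deficient mice were analysed here. The summed normalized count of 7 mast cell markers was 139 to 656 in the allo-MCd mice, 2397 to 14803 in allo-WT and 3851 to 9348 in syngeneic mice, so it was lowest in the group labelled as lacking mast cells, where 2 to 5 of the 7 were above background. The summed count of 18 macrophage and monocyte markers was at least 12105 in every mouse, so these cells were represented in all 11 skin samples. The allo-WT mouse 1 lane stood apart, with 3975 counts for its strongest positive control probe against 17615 to 33547 in the others, and each of its counts was scaled up by 2.54 against 0.759 to 1.496 elsewhere. Total counts per lane ran from 831632 to 1460260. Background, set 2 SD above the mean of the negative control probes, was 14.3 to 37.5 normalized counts.

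The promoters of the 4 members held by the RefSeq promoter table (GRCm38.p6) are shown because motifs of the activating pathways can be read in them beside the expression values below. Each is given 5′ to 3′ on the gene's own strand, from 200 bases before the annotated start to 25 bases into the transcript. Nos2 (chromosome 11) is named only. Capitals mark TATAAA in all 4, GGAAANTCC, a form of the NF-kB site, in Acod1, TTCNNNGAA, the STAT site with a gap of 3 bases, in Chil3 and Chil4, and TTCNNNNGAA, the gap of 4 bases that STAT6 can bind, in Retnla.
Acod1, chr14:103046812-103047036, plus strand: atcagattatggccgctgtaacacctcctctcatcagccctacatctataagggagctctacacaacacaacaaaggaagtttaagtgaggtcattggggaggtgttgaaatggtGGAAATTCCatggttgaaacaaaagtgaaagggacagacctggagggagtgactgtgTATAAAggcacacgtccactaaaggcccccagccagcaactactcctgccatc
Chil3, chr3:106167540-106167764, minus strand: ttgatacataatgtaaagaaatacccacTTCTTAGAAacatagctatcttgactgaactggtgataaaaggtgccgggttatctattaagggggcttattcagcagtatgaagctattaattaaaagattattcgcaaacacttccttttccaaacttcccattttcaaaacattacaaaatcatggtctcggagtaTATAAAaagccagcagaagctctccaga
Chil4, chr3:106219455-106219679, minus strand: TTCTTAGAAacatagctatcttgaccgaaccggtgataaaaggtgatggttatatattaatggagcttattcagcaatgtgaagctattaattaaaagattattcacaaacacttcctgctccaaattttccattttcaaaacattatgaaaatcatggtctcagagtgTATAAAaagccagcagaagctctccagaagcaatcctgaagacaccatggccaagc
Retnla, chr16:48842409-48842633, plus strand: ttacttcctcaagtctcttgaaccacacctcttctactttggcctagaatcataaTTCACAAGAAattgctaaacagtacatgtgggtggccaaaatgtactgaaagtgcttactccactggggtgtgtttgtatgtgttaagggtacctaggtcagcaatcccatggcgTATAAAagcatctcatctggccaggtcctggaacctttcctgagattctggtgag

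Chil3 and Chil4 are neighbouring genes on chromosome 3. Over the 300-base windows of the table, from which the printed stretches were taken, their promoters were 91.9% identical in 273 aligned columns, and both held TTCTTAGAA, at bases 172 to 164 before the start in Chil3 and 200 to 192 in Chil4. The Retnla site, TTCACAAGAA, lay at bases 145 to 136 and the Acod1 site, GGAAATTCC, at bases 85 to 77. TATAAA stood 23 to 31 bases before the start of Acod1, Chil4 and Retnla, but overlapped the annotated start of Chil3. Searched on both strands of all 32851 windows of 300 bases in the table, TATAAA was found in 13.6%, TTCNNNGAA in 8.3%, TTCNNNNGAA in 6.95% and GGAAANTCC in 1.25%. A core of the interferon-stimulated response element was found in 3.44% of windows and in none of the 4 members. These matches describe letters in a window, and binding was not measured. The panel's probe sequences were not used here, so signal shared between the probes of these 2 similar genes was not tested.

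The chitinase-like genes carried the largest differences of the 5. Chil3 encodes Ym1, a secreted lectin of the chitinase family that lacks chitinase activity and is made by alternatively activated macrophages and by neutrophils. Its normalized count was 2474, 2970 and 303 in allo-WT mice 1 to 3, 29.9, 54.1 and 3.31 in the syngeneic mice, and 1.00, 20.4, 11.4, 8.77 and 5.76 in the allo-MCd mice. The allo-WT values lay above all others, and the other groups overlapped and were mostly at background, which 1 of 3 syngeneic and 1 of 5 allo-MCd mice exceeded. The value of 1.00 stands for a lane with no Chil3 count, where 3 counts would have read 2.28.

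Chil4 encodes the closely related Ym2. It was counted at 2890, 3613 and 613 in allo-WT mice, 14.96, 23.8 and 13.2 in syngeneic mice, and 11.4, 20.4, 20.7, 12.8 and 9.21 in allo-MCd mice. As for Chil3, the 3 allo-WT mice stood clear of the rest, with mouse 3 lowest among them, and 1 mouse in each of the other groups was above background. The log2 difference between Chil3 and Chil4 within a mouse averaged 0.13 ± 1.61 (SD, n = 3) in syngeneic, -0.51 ± 0.44 (n = 3) in allo-WT and -0.91 ± 1.01 (n = 5) in allo-MCd mice, and rests on values mostly under background in the first and last of these groups.

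Group differences were fitted with limma on log2(value + 1) over the 694 genes that reached 20 normalized counts in 3 or more mice, and a gene was called when its Benjamini-Hochberg adjusted p was at most 0.05. Between allo-MCd and allo-WT mice, Chil3 fell by 7.33 on the log2 scale (SE 0.98, limma adjusted p = 5.37e-05) and Chil4 fell by 6.94 (SE 0.52, adjusted p = 7.83e-07). With every value under background raised to it, the differences were -5.96 and -6.47. Between allo-WT and syngeneic mice, Chil3 rose by 6.07 (SE 1.10, limma adjusted p = 0.00124) and Chil4 by 6.71 (SE 0.58, adjusted p = 1.73e-05), and with values raised to background the differences were 5.28 and 6.17. The test of the study's methods, Tukey's test on linear values, called neither rise after Benjamini-Hochberg adjustment (adjusted p = 0.0782 and 0.0530). In whole skin, fewer cells expressing a gene and less RNA per cell cannot be told apart.

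**Figure D1:**
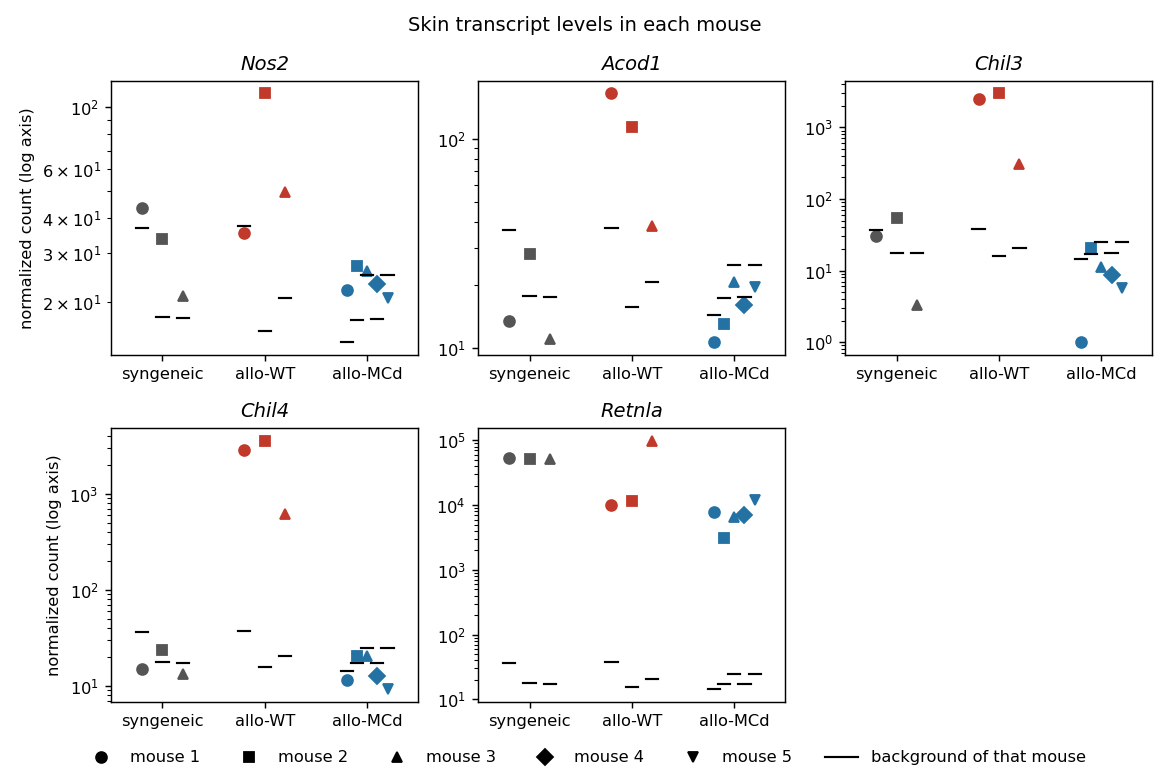
Normalized count of each of the 5 genes (vertical log axis) in every syngeneic, allo-WT and allo-MCd mouse. Each symbol is 1 mouse and each short bar the background of that mouse. Chil3 and Chil4 were above 300 in the 3 allo-WT mice and below 55 in the other 8, whereas Retnla was lower in allo-WT mice 1 and 2 and in all allo-MCd mice than in the syngeneic mice.

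Retnla encodes RELM-alpha, a small secreted protein induced by interleukin 4 and interleukin 13 and also made in fat. Its normalized count was 53422, 52245 and 51532 in the syngeneic mice, 9927, 11701 and 99390 in the allo-WT mice, and 7873, 3125, 6529, 6998 and 11815 in the allo-MCd mice. The syngeneic mice differed by 1.04-fold from highest to lowest and the allo-WT mice by 10.01-fold, with mouse 3 above every syngeneic mouse and mice 1 and 2 within the allo-MCd range.

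Allo-MCd mice had less Retnla than syngeneic mice, by 2.97 on the log2 scale (log2 difference -2.97, SE 0.65, limma adjusted p = 0.00398), with no overlap of the groups. This was the smallest p that an exact permutation test of 3 against 5 mice can give (two-sided p = 0.0179). The test of the study's methods, on linear values, did not call it, before or after Benjamini-Hochberg adjustment (adjusted p = 0.246). The difference between allo-MCd and allo-WT mice was -1.76 (SE 0.65, limma adjusted p = 0.0326), with overlapping groups, and without allo-WT mouse 3 it was -0.69 (adjusted p = 0.147). The difference between allo-WT and syngeneic mice was -1.21 (95% interval -2.78 to 0.36, adjusted p = 0.180), and without mouse 3 it was -2.28 (adjusted p = 0.00145). Leaving out allo-WT mouse 3 thus changed the call in both comparisons with allo-WT. Between allo-MCd and allo-WT mice the call was also lost without allo-MCd mouse 2 or mouse 3 and after median scaling.

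Of the classical members, Acod1 encodes the enzyme that makes itaconate, a metabolite of stimulated macrophages. It was counted at 165, 113 and 38.3 in allo-WT mice, 13.5, 28.1 and 11.03 in syngeneic mice, and 10.6, 12.98, 20.7, 15.95 and 19.6 in allo-MCd mice. All 3 allo-WT mice were above background and above every other mouse, compared with 1 of 3 syngeneic and 0 of 5 allo-MCd mice above background. Against the background of the allo-MCd lanes the allo-WT level was at least 4.64-fold higher. Acod1 rose by 2.40 from syngeneic to allo-WT mice (SE 0.52, limma adjusted p = 0.0036) and fell by 2.46 from allo-WT to allo-MCd mice (SE 0.47, adjusted p = 0.000711). With values raised to background these differences were 1.73 and -2.16. The test of the study's methods no longer called the rise after Benjamini-Hochberg adjustment (adjusted p = 0.0739).

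Nos2, the inducible nitric oxide synthase, was low throughout. It was counted at 35.5, 112 and 49.8 in allo-WT mice, 43.4, 33.5 and 20.95 in syngeneic mice, and 22.02, 26.9, 25.8, 23.1 and 20.7 in allo-MCd mice. The allo-WT and syngeneic mice overlapped, and allo-WT mouse 1 was below the background of its own lane while mouse 2 was the only mouse above 50. Nos2 was lower in allo-MCd than allo-WT mice (log2 difference -1.27, SE 0.37, limma adjusted p = 0.0106), but without allo-WT mouse 2 the difference was -0.81 (adjusted p = 0.0590). The difference between allo-WT and syngeneic mice was 0.88 (95% interval -0.03 to 1.79, adjusted p = 0.101), and without allo-WT mouse 1, whose lane stood apart, it was 1.23 (adjusted p = 0.0406).

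Few other enzymes of these pathways are on the panel. Gch1, which makes the cofactor that nitric oxide synthases need, was read at 2.54 in allo-WT mouse 1, which is 1 count, and at 59.8 to 102 in the other 10 mice. It was not called in any comparison. Hif1a, a transcription factor that can act on Nos2, rose by 1.46 from syngeneic to allo-WT mice (limma adjusted p = 0.00288) and had a difference of -1.33 in allo-MCd against allo-WT mice, which was -0.49 and not called after median scaling.

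Between allo-MCd and allo-WT mice, all 5 genes were called lower, where 50.3% of all genes tested were called lower, and 4 did not overlap, against 56.2% of genes. Each of these 4 had the smallest p that the exact permutation test allows (two-sided p = 0.0179), and Retnla, which overlapped, had p = 0.0536 by the same exact test. Between allo-WT and syngeneic mice, Acod1, Chil3 and Chil4 were called higher, against a background of 28.2%, and none was called lower. These 3 also did not overlap, as did 53.9% of genes, and each had the smallest p that an exact permutation test of 3 against 3 can give (two-sided p = 0.1). Between allo-MCd and syngeneic mice only Retnla was called, lower, beside 36.9% of all genes, and only Retnla did not overlap, beside 44.2%. Each pair of comparisons shares a group of mice, so the 3 are not independent.

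For the other 4 genes the interval of the difference between allo-MCd and syngeneic mice included 0. It was -1.20 to 0.42 on the log2 scale for Nos2, -1.08 to 0.96 for Acod1, -3.40 to 0.87 for Chil3 and -1.36 to 0.91 for Chil4. These intervals were narrowest for Nos2 and widest for Chil3. For Acod1, Chil3 and Chil4 most values of both groups were under background, so a difference below that level was not detectable.

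The values of the whole panel were shifted between groups, the median gene differing by -0.72 on the log2 scale in allo-MCd minus allo-WT, by 0.22 in allo-WT minus syngeneic and by -0.59 in allo-MCd minus syngeneic. When each mouse was instead brought to the same median gene, those of the panel were 0.11, -0.03 and -0.01. Under this scaling 3 of the 5 genes were lower in allo-MCd than allo-WT mice, Acod1 by -1.64, Chil3 by -6.57 and Chil4 by -6.11, beside 30.4% of all genes. The differences of Nos2 (-0.45, limma adjusted p = 0.345) and Retnla (-0.92, adjusted p = 0.226) were not called. Against syngeneic mice, the same 3 genes were higher in allo-WT mice (2.14, 5.79 and 6.44), beside 24.1% of all genes. Retnla was still lower in allo-MCd than syngeneic mice, by -2.38 (limma adjusted p = 0.0185), beside 13.5% of genes.

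**Figure D2:**
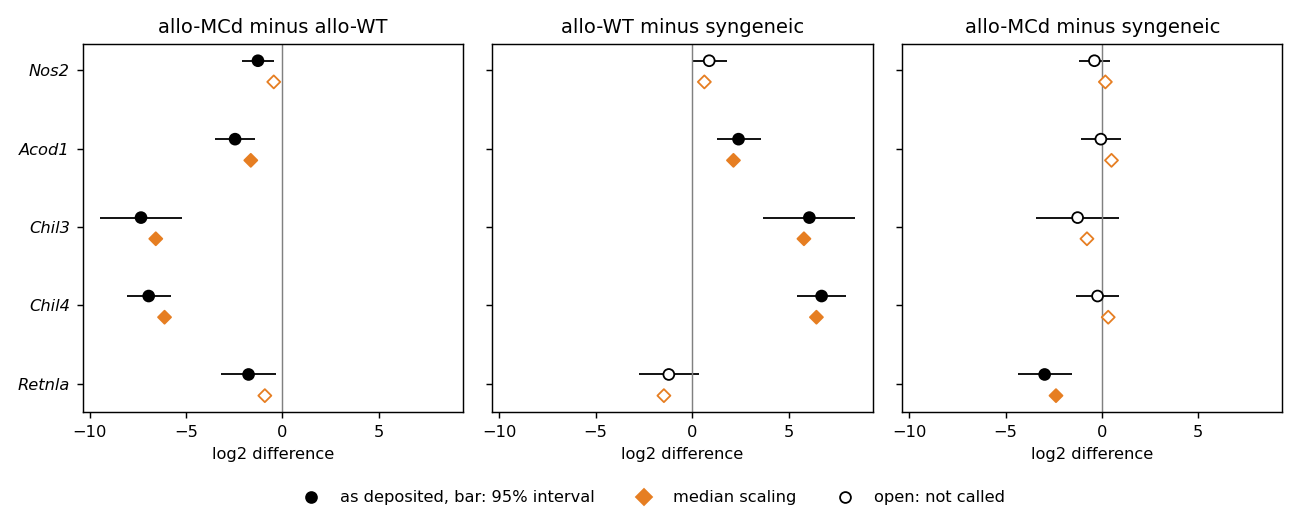
Log2 differences of the 5 genes (horizontal axis) in the 3 comparisons, as deposited (circles, with 95% intervals) and after scaling each mouse to the same median gene (diamonds). Filled symbols were called, and open ones were not. Acod1, Chil3 and Chil4 were called in both comparisons with allo-WT under both scalings, and Nos2 in allo-MCd minus allo-WT moved from -1.27 to -0.45 and was then no longer called.

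The 5 genes did not move as a block within the allo-WT group. Mouse 3 had the lowest Acod1, Chil3 and Chil4 of the group and the highest Retnla, mouse 1 the highest Acod1, and mouse 2 the highest Nos2, Chil3 and Chil4. Relative to the syngeneic mean on the log2 scale, Chil4 was 7.34, 7.67 and 5.11 higher in mice 1 to 3, and Retnla was -2.40, -2.16 and 0.92. Across the 11 mice, with each scaled to the same median gene, the Pearson r of Chil3 with Chil4 was 0.94, of Acod1 with Chil4 0.90 and of Acod1 with Chil3 0.88. That of Nos2 with Acod1, the classical pair, was 0.43, and that of Chil4 with Retnla was -0.17. With the group means taken out, Chil4 and Retnla had an r of -0.86. These correlations share the lanes and the 3 groups and are given as descriptions.

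**Figure D3:**
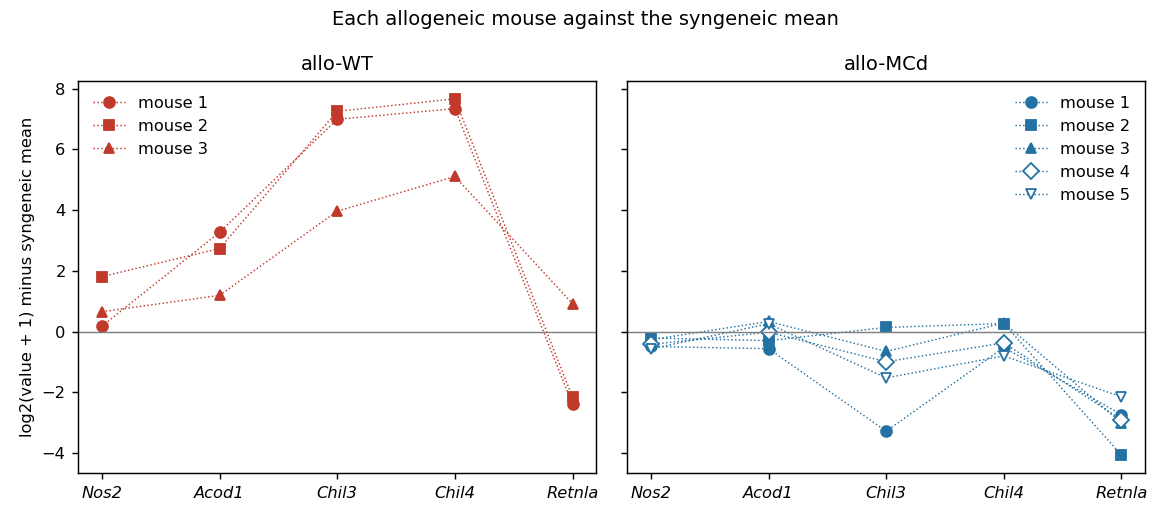
Log2(value + 1) of the 5 genes in each allogeneic mouse minus the syngeneic mean (vertical axis), with allo-WT mice at left and allo-MCd mice at right. Symbols are single mice, and dotted lines join the values of 1 mouse across genes. Mouse 3 of the allo-WT group was the lowest of its group at Acod1, Chil3 and Chil4 and the highest at Retnla, at 0.92 above the syngeneic mean.

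A log2 difference between 2 genes of the same mouse is nearly free of that mouse's scaling where both counts are high, but not where they are low, since 1 was added to each value. In syngeneic and allo-MCd mice Acod1, Chil3 and Chil4 were mostly under background, so differences that include them there compare a signal with background. Probes differ in efficiency, so only the change of such a difference between groups is read here. Nos2 minus Acod1, the classical pair, averaged 0.91 ± 0.69 (SD, n = 3) in syngeneic, -0.61 ± 1.38 (n = 3) in allo-WT and 0.58 ± 0.41 (n = 5) in allo-MCd mice, and each group's range overlapped both others.

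Chil4 minus Retnla, both counted as alternative, went from -11.52 ± 0.42 (SD, n = 3) in syngeneic to -3.60 ± 3.23 (n = 3) in allo-WT and -8.78 ± 1.13 (n = 5) in allo-MCd mice. The syngeneic mice were below all others, and the allo-WT mice, spread from -7.34 to -1.70, overlapped the allo-MCd mice at -10.18 to -7.19. Nos2 minus Retnla was -10.66 ± 0.49 (n = 3), -8.57 ± 2.16 (n = 3) and -8.08 ± 0.83 (n = 5). The syngeneic mice were below every allo-MCd mouse there, and the allo-WT range, -10.93 to -6.69, overlapped both other groups.

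The mean log2 level of the 2 classical genes minus that of the 3 alternative genes was -3.48 ± 0.27 (SD, n = 3) in syngeneic, -5.69 ± 0.22 (n = 3) in allo-WT and -2.22 ± 0.26 (n = 5) in allo-MCd mice. The groups did not overlap, and the allo-WT mice had the lowest values. Chil3 and Chil4 were 2 of the 3 alternative genes. In allo-WT mouse 3 lower Chil3 and Chil4 than in mice 1 and 2 went with a higher Retnla. The value combined a high Chil3 and Chil4 in allo-WT mice with a low Retnla in allo-MCd mice. Without Retnla it was 0.34 in syngeneic and 0.86 in allo-MCd mice, whose ranges then overlapped, against -4.41 in allo-WT mice. Without Chil4 it was -5.42 in syngeneic and -6.21 in allo-WT mice, with overlapping ranges, and -3.53 in allo-MCd mice.

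Of 14 signals that drive classical activation, 14 were called lower in allo-MCd than allo-WT mice, where 50.3% of all genes were, and 8 after median scaling, where 30.4% of all genes were. In allo-WT against syngeneic mice 5 were called higher, where 28.2% of all genes were, and 9 were not called. After median scaling 5 were called higher there and 1 lower, where 24.1% and 27.1% of all genes were. The median log2 difference of the 14 was -1.62 in the first comparison and 0.76 in the second, where all genes tested had medians of -0.72 and 0.22. Ifng, which encodes interferon gamma, was 2.80 higher in allo-WT than syngeneic mice (limma adjusted p = 0.000409) and had a log2 difference of -2.80 in allo-MCd against allo-WT mice. Tnf, the cytokine tumor necrosis factor, had a difference of -1.85 between allo-MCd and allo-WT mice, and at 1.04 was not called between allo-WT and syngeneic mice. Irf1, a transcription factor induced by interferon gamma, and Il1b, the cytokine interleukin 1 beta, had differences of -2.85 and -2.64 between allo-MCd and allo-WT mice. Ifng was above background in 4 of the 11 mice, none of them allo-MCd, so its difference between allo-MCd and allo-WT mice has no exact size.

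Of 15 genes upstream of alternative activation, 12 were called lower in allo-MCd than allo-WT mice, where 50.3% of all genes were, and 7 were called lower and 2 higher after median scaling, where 30.4% and 35.4% of all genes were. In allo-WT against syngeneic mice, 2 were called higher and 2 lower, where 28.2% and 14.8% of all genes were, and after median scaling 2 higher and 4 lower, where 24.1% and 27.1% of all genes were. Their median log2 differences were -1.56 and 0.59, where all genes had -0.72 and 0.22. Il4ra, the receptor chain shared by interleukin 4 and interleukin 13, was 1.16 higher in allo-WT than syngeneic mice (limma adjusted p = 0.00259), and its difference was -2.14 in allo-MCd against allo-WT mice. Il10ra, a chain of the interleukin 10 receptor, was the other gene called higher in allo-WT mice, at 1.06. Il1rl1 and Il33, a receptor and its alarmin ligand, had differences of -3.09 and -2.55 in allo-MCd against allo-WT mice, and at 1.34 and 1.39 were not called between allo-WT and syngeneic mice.

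Il4 and Il13, the cytokines themselves, had low counts. Il4 was above background in 3 of 3 allo-WT, 2 of 3 syngeneic and 1 of 5 allo-MCd mice, and Il13 in 2, 3 and 2 of these. Il4 was counted at 112, 27 and 135 in allo-WT mice and Il13 at 28, 43 and 151, so that mouse 3, the mouse with the most Retnla, also had the most Il4 and Il13 of its group. Il4 differed by -2.66 and Il13 by -1.72 between allo-MCd and allo-WT mice, and Il13 was not called after median scaling (-0.91, limma adjusted p = 0.127), while neither gene was called between allo-WT and syngeneic mice. Stat6, their signal transducer, had a difference of -0.72 between allo-MCd and allo-WT mice and of 0.12 after median scaling, a change of sign. Irf4 and Pparg, transcription factors of the alternative program, were lower in allo-WT than syngeneic mice, at -1.58 and -1.15.

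Of 22 other products of classical activation on the panel, 21 were called lower in allo-MCd than allo-WT mice, where 50.3% of all genes were. In allo-WT against syngeneic mice 14 were called higher, where 28.2% of all genes were, 1 was called lower and 7 were not called. After median scaling 16 were called lower and 1 higher in the first comparison, where 30.4% and 35.4% of all genes were, and 13 higher and 1 lower in the second, where 24.1% and 27.1% of all genes were. The median log2 differences as deposited were -2.61 and 1.72. Cxcl9 and Cxcl10, chemokines induced by interferon gamma, rose by 6.11 and 5.08 from syngeneic to allo-WT mice and had differences of -5.24 and -4.20 in allo-MCd against allo-WT mice. Fpr2, a formyl peptide receptor of phagocytes, had a difference of -4.90 in the latter comparison. Il12a, a subunit of interleukin 12, was the 1 gene called lower in allo-WT than syngeneic mice, at -0.93.

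Of 21 other products of alternative activation tested, 12 were called lower and 1 higher in allo-MCd than allo-WT mice. Of all genes, 50.3% were called lower and 11% higher there. In allo-WT against syngeneic mice 5 were called higher and 3 lower, where the shares of all genes were 28.2% and 14.8%. The counts lay close to these shares. After median scaling 9 were called lower and 3 higher in the first comparison (30.4% and 35.4% of all genes), and 4 higher and 5 lower in the second (24.1% and 27.1%), so that the balance of the second turned. The median log2 differences were -1.24 and 0.55, where all genes had -0.72 and 0.22. Mrc1, the mannose receptor, was 1.39 higher in allo-WT than syngeneic mice and had a difference of -2.79 in allo-MCd against allo-WT mice, and Clec7a, a receptor for fungal glucans, followed it at 1.14 and -2.95. Alox15, a lipoxygenase, Il1rn, the interleukin 1 receptor antagonist, and Stab1, a scavenger receptor, were also higher in allo-WT than syngeneic mice, at 3.28, 1.04 and 0.84. The Il1rn groups overlapped, and its difference was not called after median scaling (0.79, limma adjusted p = 0.0595). The 3 lower there were the lectin Cd209e at -1.76, the decoy receptor Il1r2 at -1.65 and the transcription factor Egr2 at -0.74. Pdcd1lg2, a ligand of the receptor PD-1, had a difference of -2.34 between allo-MCd and allo-WT mice. Cd163, a scavenger receptor, had a difference of -1.88 in allo-MCd against allo-WT mice and, at 0.55, was not called in allo-WT against syngeneic mice. The lists share genes, so their counts are not separate. Tnf and Il1b stood in both classical lists, and Il10 and Tgfb1 in both alternative lists. Cd14, Fcgr1, Marco, Mrc1 and Cd163 were also counted among the macrophage and monocyte markers.

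Between allo-MCd and syngeneic mice, 15 of the 21 were called lower, where 36.9% of all genes were, and 7 after median scaling, where 13.5% of all genes were. The chemokine Ccl24, the gene whose levels were most like Retnla's over the 11 mice (Pearson r = 0.87 after median scaling), was among them at -2.23. Egr2 was the 1 gene of the 21 called higher in allo-MCd than allo-WT mice, at 0.88, where 11% of all genes were called higher.

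**Figure D4:**
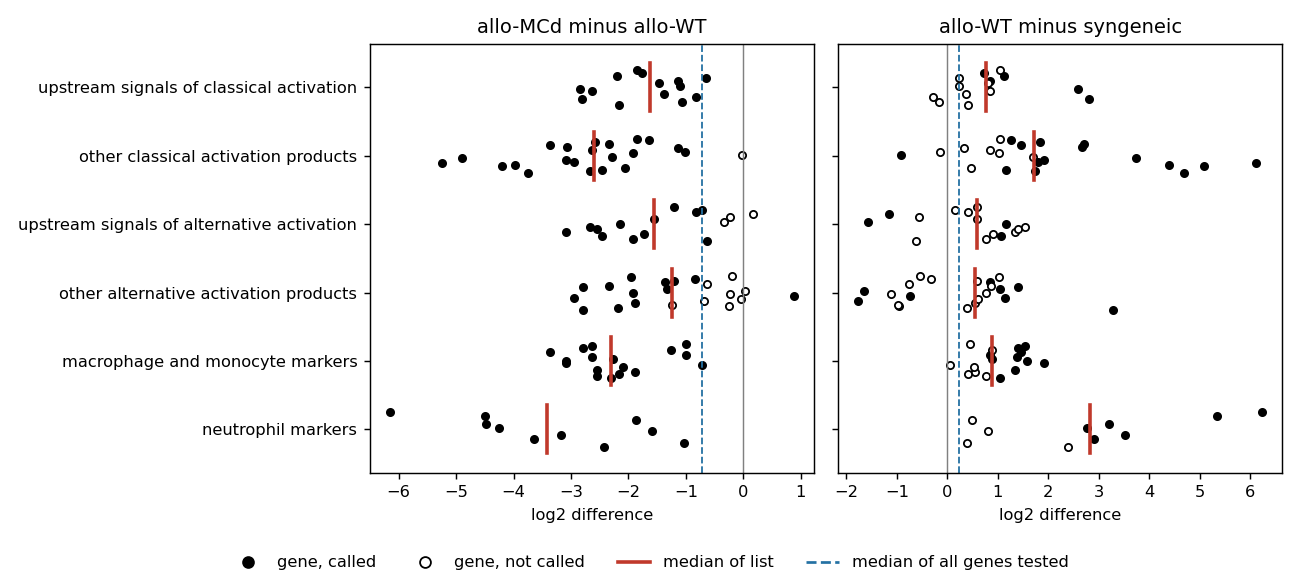
Log2 differences of single genes (dots, filled where called) in lists of activation and cell type genes, for allo-MCd minus allo-WT (left) and allo-WT minus syngeneic (right). Red bars are list medians and the dashed line is the median of all genes tested. The classical products had the lowest list median of the 4 activation lists at left (-2.61) and the highest at right (1.72).

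Markers of several cell types that can contain these transcripts were compared too. The 2 keratinocyte and epithelial markers were not called in any comparison as deposited, and their sums, 2780 to 6058 in syngeneic, 4452 to 7889 in allo-WT and 5211 to 5803 in allo-MCd mice, overlapped. After median scaling Cdh1, 1 of the 2, was called higher in allo-MCd than allo-WT mice (0.80, limma adjusted p = 0.0175). It was then also called higher in allo-MCd than syngeneic mice (1.16, adjusted p = 0.00853). Of all genes, 35.4% and 14% were called higher in these comparisons. Cdh1 also counts among the 21 other products of alternative activation above. The summed normalized count of 18 macrophage and monocyte markers was 31718 to 39884 in syngeneic, 70991 to 100154 in allo-WT and 12105 to 20165 in allo-MCd mice, without overlap. Ly6c1 was the largest part of this sum. All 17 tested were called lower in allo-MCd than allo-WT mice, where 50.3% of all genes were. After median scaling 13 were, where 30.4% of all genes were. Cd68, a lysosomal protein of macrophages, was 1.34 higher in allo-WT than syngeneic mice (limma adjusted p = 0.00252) and had differences of -2.55 in allo-MCd against allo-WT and -1.21 in allo-MCd against syngeneic mice. Adgre1 and Csf1r, further macrophage receptors, had differences of -2.31 and -2.09 in allo-MCd against allo-WT mice. The largest differences of the list there were those of Marco, a scavenger receptor, at -3.37, and of the Fc receptors Fcgr1 and Fcgr3, both at -3.09. Retnla and Cd68 thus both stood lower in allo-MCd than syngeneic mice, while the intervals for Nos2, Acod1, Chil3 and Chil4 included 0. The part of macrophage number in the 5 differences was not tested.

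The summed count of 13 neutrophil markers was 934 to 1309 in syngeneic, 4488 to 136214 in allo-WT and 884 to 1378 in allo-MCd mice. S100a8, a calcium-binding protein abundant in neutrophils, was counted at 76492, 16077 and 1892 in allo-WT mice 1 to 3, and S100a9, its partner, at 55154, 12612 and 1188. S100a8 and S100a9 together made up most of the summed count in each of these mice. Between allo-MCd and allo-WT mice S100a9 differed by -6.15 and S100a8 by -4.49, and Mmp8, a neutrophil collagenase, was called lower but was above background in 3 of 3 allo-WT and 0 of 5 allo-MCd mice, so that its difference has no exact size. Mouse 3 was the lowest of the 3 for 7 of the 13 markers, S100a8 and S100a9 among them, and mouse 2 for the other 6, such as the receptor Csf3r at 1143, 514 and 668 in mice 1 to 3. S100a9 was among the 3 genes most like Acod1 over the 11 mice (Pearson r = 0.93) and Fpr1, a formyl peptide receptor of neutrophils, was the most like Chil3 (r = 0.95). Ly6g, which defines neutrophils in the mouse, was above background in 3 of 11 mice, and its counts in allo-WT mice were 94, 19 and 20. In the paper, a pathologist counted neutrophils and eosinophils in stained skin sections and found no significant difference between the groups. Those are counts of cells and not of RNA. The part of neutrophils in these differences was not tested.

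Eosinophil markers had a different order within the group. Siglecf, an eosinophil receptor, was counted at 535, 113 and 939 in allo-WT mice and at 45 to 91 in the other 8, and Ccr3 at 499, 80 and 975, with the highest counts in mouse 3. Genes of fat cells were also set beside Retnla, chosen after their values were seen. Lpl, the lipoprotein lipase, was counted at 1747, 3026 and 6659 in allo-WT mice and 12890, 6174 and 7095 in syngeneic mice, while Fabp4, a fatty acid carrier, at 22088, 11710 and 17477 did not follow that order, nor did Cd36, a fatty acid receptor, at 4801, 4096 and 4695. In the allo-MCd mice, all below the syngeneic mice in Retnla, Fabp4 was counted at 9842 to 34771, Lpl at 3956 to 10050 and Cd36 at 3188 to 11158, ranges that overlapped those of the syngeneic mice. Pparg at 144 to 448, Fasn at 3652 to 36113, Elovl6 at 621 to 2819 and Acly at 2765 to 15132 overlapped them too. The part of either cell type in the Retnla values was not tested.

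The genes with the pattern most like each of the other members were likewise found by Pearson r over the 11 mice after median scaling. They were Timd4 for Nos2 (r = 0.89), Il1a for Acod1 (0.93) and Casp1 for Chil4 (0.97). Stat3 and Ido1 came next for Nos2 (0.81 and 0.76), Ifng came after S100a9 for Acod1 (0.92), and Tlr13 and Mmp13, a collagenase, came next for Chil4 (both 0.96). Fcgr4 and Cd38 followed Fpr1 for Chil3 (both 0.93), and Batf3 and Alox5 followed Ccl24 for Retnla (both 0.83). These values rest on the same 11 lanes and 3 groups. With the group means taken out, the r of Timd4, Il1a and Casp1 with these members was 0.90, 0.82 and 0.63.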

How the data were processed

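The deposited values were a linear signal, molecule counts after normalization by the authors in nSolver, whose version, reference genes and handling of background are not given in the sources used here. From 100 ng of RNA, 1 lane was run for each of the 11 mice, and 768 entries held 754 genes and 14 control probes. Each mouse's scaling factor was found as the step at which its gene values became whole numbers (within 0.011), and at least 99.9% of values did, which gave the counts per lane and the background. Control probes and 22 possible housekeeping genes were set aside, and genes reaching 20 in 3 or more mice were kept, leaving 694, all 5 members included. Some further genes are not reported here. Groups were compared with limma 3.58.1 in R 4.3.3 on log2(value + 1), with an intensity trend, all 3 groups in 1 fit and no covariate. P-values measure the spread between mice, and fold changes on this scale understate those of low genes. Exact permutation tests were two-sided, on group differences of mean log2 values. The fit was tested on simulated data. Named genes were the members, common signals, receptors and markers of macrophages and neutrophils, the 3 genes of each list with the largest called difference between allo-MCd and allo-WT mice without overlap (printed for the activation, macrophage and neutrophil lists), and the 3 genes most like each member. Genes that make up a small count, Gch1, Hif1a and the fat and eosinophil genes were named after their values were seen. Members and lists were chosen with earlier results of these data known. Of 754 symbols, 744 were found in RefSeq, 9 under a synonym and 1 not at all. Promoters came from RefSeq and were aligned with Biopython 1.88. Alternatives were other pseudocounts, filters and scalings, limma without the trend or with only 2 groups, a replicate block, the methods' own test and leaving out each mouse. Added after seeing the data were values raised to background, voom on the recovered counts, no gene set aside, and a score without Retnla.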

Additional observations from a re-analysis of the deposited data

How the results depend on the processing

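Chil3, Chil4 and Acod1 kept their direction and were called between allo-MCd and allo-WT mice under every alternative that tested them, with log2 differences from -8.39 to -5.54, -7.73 to -5.77 and -3.06 to -1.40. A filter at a value of 50 left Nos2 and Acod1 untested and 3 genes called. Of the 5 genes lower in that comparison, 3 were called under median scaling and 3 under quantile normalization, the others being Nos2 (-0.06 under quantile normalization) and Retnla (-0.64). Retnla also passed the threshold no longer when only the 2 groups were fitted (limma adjusted p = 0.0579), nor without allo-MCd mouse 2 (-1.48, adjusted p = 0.0692) or mouse 3 (-1.75, adjusted p = 0.0503). Leaving out each mouse in turn gave 4 to 5 genes called lower there, 3 to 4 higher and 0 to 1 lower in allo-WT against syngeneic mice, and 1 lower in allo-MCd against syngeneic mice. The methods' test on the linear values called 3 genes lower between allo-MCd and allo-WT mice with or without adjustment. With Benjamini-Hochberg adjustment it called 0 genes higher in allo-WT against syngeneic mice, and 0 lower in allo-MCd against syngeneic mice with or without adjustment, where Retnla lost its call. Uncalled differences between allo-MCd and syngeneic mice changed sign under median scaling and quantile normalization for Nos2 (0.18 and 0.18), Acod1 (0.49 and 0.49) and Chil4 (0.32 and 0.27), and with 1 mouse left out for Acod1 (-0.31 to 0.32) and Chil4 (-0.39 to 0.0106). The cause was not tested. The classical minus alternative level was -5.34 in allo-WT mice with a pseudocount of 20. In syngeneic, allo-WT and allo-MCd mice it was -5.42, -6.21 and -3.53 without Chil4, and 0.34, -4.41 and 0.86 without Retnla. Same-numbered mice deviated together with correlations of only -0.112 to 0.211, so the numbers were not taken to pair mice. In a fit with a replicate block for mouse number, Nos2 was no longer called between allo-MCd and allo-WT mice (-1.20, limma adjusted p = 0.0515) and the uncalled Chil4 difference between allo-MCd and syngeneic mice was 0.0091 in place of -0.23, and no other call of the 5 genes changed. A planned edgeR fit was not run, since the deposited values are normalized, and voom on the recovered counts was run in its place. Background limits Acod1, Chil3 and Chil4 in syngeneic and allo-MCd mice.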
